A study of Mus musculus with 12 samples.

Results

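Mice without exon 5 of Grin1 were set against the wild types of the same line, over all genes of their cortex. The 6 libraries were chosen by the mutation label of each sample: 3 carry the knockout label and 3 the label of its own wild types, out of 12 libraries in the series. The knockout group (KO) is homozygous, genotype Grin1-exon5-/-, and its reference (KO_WT) is labelled wild type. Both groups are adult C57Bl/6 mice, the tissue is cortical brain, and poly(A) RNA of each animal gave 1 library. Neither the way exon 5 was removed nor the sex of the animals is in the labels. The other 6 libraries are a knock-in with constitutive exon 5 (KI, 3 libraries) and the wild types of that line (KI_WT, 3 libraries). They share the fit and its estimate of spread, and their own values are given beside a few results. Animal numbers in the titles fall into a low and a high range. The low range holds KO 1 with KO_WT 2 and KO_WT 3, and the high range the remaining animals, which partly confounds range with genotype.

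Grin1 encodes GluN1, the subunit that every NMDA-type glutamate receptor needs, and these receptors pass calcium when glutamate and membrane depolarisation coincide. Exon 5 is a cassette that adds a short charged loop to the extracellular amino-terminal domain. Receptors that carry the loop are known to be less sensitive to block by protons and zinc and to deactivate faster. The cassette is used less in the forebrain than in hindbrain regions.

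The deleted cassette is shown within the messenger RNA, followed by the junction left without it, since these letters are what the genotype label says the KO animals lack. Capitals mark the cassette, and the lower-case letters are 20 bases of the exon on each side. The cassette lies on the minus strand of GRCm38 at chr2:25311343-25311405 (GENCODE M21), and the junction of the neighbouring exons spans chr2:25310475-25313428.
Grin1 mRNA with exon 5: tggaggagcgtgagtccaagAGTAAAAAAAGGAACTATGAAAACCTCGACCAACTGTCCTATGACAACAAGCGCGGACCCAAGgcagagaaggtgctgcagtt
Grin1 mRNA without exon 5: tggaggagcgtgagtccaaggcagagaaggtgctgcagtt
The cassette is 63 bases long, or 21 codons, so its loss keeps the reading frame. It is present in 4 of the 8 annotated coding transcripts of Grin1, and the other 4 join the flanking exons. It makes up 1.473% of the 4276-base transcript that holds it. A count over the whole gene therefore cannot check the genotype labels.

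Grin1 (ENSMUSG00000026959, chr2:25291181-25319187, minus strand) did not pass the test over all genes. Its level, scaled by library total and TMM (CPM), was 269, 340 and 313 in KO 1 to KO 3, against 363, 329 and 308 CPM in KO_WT 1 to KO_WT 3. The groups overlapped, with KO 1 the lowest library. On the log2 scale KO differed from KO_WT by -0.12 (SE 0.10, 95% interval -0.33 to 0.10). The quasi-likelihood fit in edgeR, adjusted after Benjamini and Hochberg over all genes, returned 0.771 as adjusted p.

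The 6 libraries held 32661770 to 36514024 counts and 21927 to 22809 detected genes, and their 10 most abundant genes took 8.42% to 9.03% of the counts. A defining cortical marker was abundant in all of them. Slc17a7, the vesicular transporter of cortical glutamate neurons, was at 523 to 1081 CPM in KO and at 676 to 752 CPM in KO_WT. Y-linked transcripts were near 0 in 2 KO libraries. The 4 tested Y-linked genes summed to 0.11 CPM in KO 1, 0.12 CPM in KO 2 and 198 CPM in KO 3, against 191, 204 and 220 CPM in the KO_WT libraries (4 of 4 lower, median log2 fold change -1.62), with Uty at 0 in KO 2. Sex is thus partly confounded with genotype. A term for Y-linked expression was therefore run, and its median is given for each gene list whose median it turned in sign or moved by over 0.1 on the log2 scale. The Y-linked list itself was then at 0.01. RNA of bulk tissue was measured, in which fewer cells of a type and less RNA per cell cannot be told apart.

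The KO libraries differed from each other more than the KO_WT libraries did. Over 10185 genes above 10 CPM the median SD on the log2 scale was 0.134 in KO and 0.0847 in KO_WT (n = 3 each), and the SD was larger in KO for 7256 genes (71.2%). In the other line it was 0.0954 in KI and 0.122 in KI_WT. The root mean square log2 difference between 2 libraries was 0.270 to 0.333 within KO and 0.191 to 0.225 within KO_WT. KO 3 lay nearer to each KO_WT library (0.194, 0.158 and 0.198) than to KO 1 (0.313) or KO 2 (0.270). Genes more than 2-fold away from the mean of the other libraries of the group were most frequent in KO. KO 1 had 107 of them, KO 2 had 69 and KO 3 had 36, against 14 to 27 in the KO_WT libraries. Along the first principal component (39.2% of the variance) KO 1 (19.7) and KO 2 (8.97) lay on 1 side. KO 3 and the KO_WT libraries lay on the other (-12.0 to -3.1). KO 2 stood apart along the second (32.3%), at -19.7 against -2.01 to 11.6 in the other libraries. KO 1 and KO 2 are also the 2 libraries without Y-linked transcripts, and the part of sex in this spread was not tested.

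**Figure D1:**
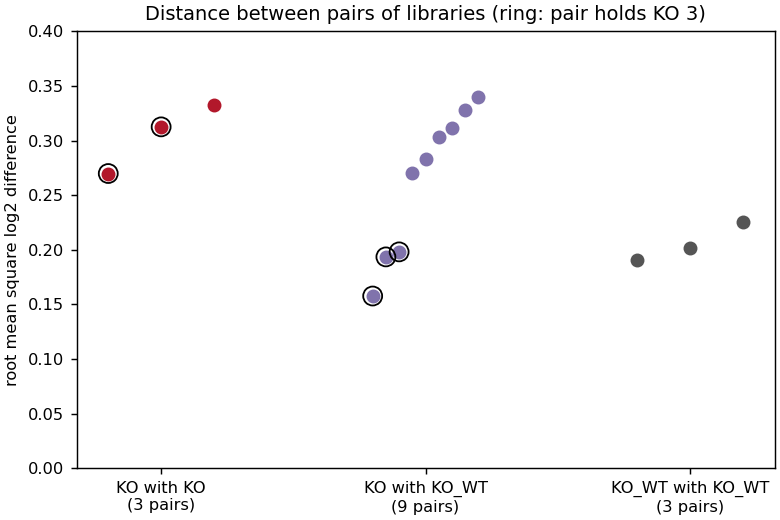
Root mean square log2 difference (y axis, from 0) between each pair of libraries over genes above 10 CPM, for pairs within KO, between KO and KO_WT, and within KO_WT (x axis), with rings around pairs that hold KO 3. Pairs within KO lie at 0.270 to 0.333, and the 3 pairs of KO 3 with KO_WT at 0.158 to 0.198, level with the pairs within KO_WT at 0.191 to 0.225.

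A single gene passed the test across all genes. Of 17441 genes tested, 1 (0.00573%) passed an adjusted p of 0.05 in the quasi-likelihood fit of edgeR, 0 (0.0%) higher and 1 (0.00573%) lower in KO. Before adjustment 1260 genes (7.22%) had p under 0.05, of which 599 (3.43%) were higher and 661 (3.79%) lower. The 3 KO libraries lay all above or all below the 3 KO_WT libraries in 2154 genes (12.4%), with KO above in 1037 (5.95%) and below in 1117 (6.4%). The mean was higher in KO for 9062 genes (52.0%), the median log2 fold change was 0.01, and 5% of genes lay below -0.36 and 5% above 0.50 (KO over KO_WT). Beyond 2-fold there were 232 genes, 200 higher and 32 lower.

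Tpp1 was the gene that fell. It encodes tripeptidyl peptidase 1, a lysosomal serine protease that clips tripeptides from the amino ends of proteins, and its inherited loss causes the late infantile form of neuronal ceroid lipofuscinosis. Tpp1 (ENSMUSG00000030894, chr7:105744811-105752235 in GRCm38, minus strand) was at 48.3, 46.1 and 48.6 CPM in KO 1 to KO 3, against 83.4, 87.2 and 88.2 CPM in KO_WT 1 to KO_WT 3. The raw counts were 1764, 1541 and 1759 in KO and 2647, 2903 and 2931 in KO_WT. The KO libraries lay close together and below every KO_WT library, with no overlap. Per length, the authors' deposited RPKM averaged 13.8 in KO and 24.1 in KO_WT. The KO mean was 0.553 of the KO_WT mean, a log2 fold change of -0.86 (SE 0.062, 95% interval -0.99 to -0.72). The edgeR quasi-likelihood p, Benjamini-Hochberg adjusted over all genes, was 0.000171.

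Tpp1 was lower in KO by a similar amount within each range of animal numbers. The log2 difference of KO from KO_WT was -0.86 in the low range (1 KO and 2 KO_WT libraries) and -0.82 in the high range (2 KO and 1 KO_WT). Leaving out any 1 of the 6 libraries gave -0.88 to -0.83, and a term for Y-linked expression gave -0.85, each with Tpp1 passing. With terms for thalamus, choroid plexus and olfactory bulb markers the log2 fold change was -0.88 and the edgeR adjusted p 0.057, which no longer passed.

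The knock-in line did not share this fall. Tpp1 was at 80.0, 75.6 and 81.6 CPM in KI and at 84.4, 78.3 and 84.1 CPM in KI_WT, overlapping each other and lying near the level of KO_WT. The difference between the 2 effects, KO over KO_WT minus KI over KI_WT, was -0.80 on the log2 scale (SE 0.087, 95% interval -0.99 to -0.61). This difference passed over all genes (edgeR quasi-likelihood, adjusted p 0.0155). It was the 1 gene (0.00573%) whose difference of effects passed, where 918 genes (5.26%) had an unadjusted p under 0.05. In KI against KI_WT 0 genes (0.0%) passed the same edgeR test, and 1214 (6.96%) had an unadjusted p under 0.05.

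**Figure D2:**
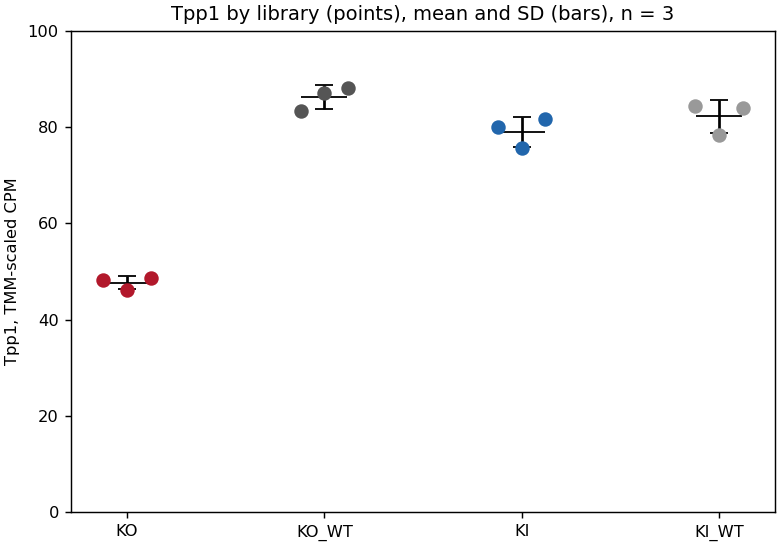
Tpp1 level in TMM-scaled CPM (y axis, from 0) for each library (points) of KO, KO_WT, KI and KI_WT (x axis), with the mean (line) and SD (bars) of 3 libraries. The 3 KO libraries sit between 46.1 and 48.6 CPM, and the 9 others between 75.6 and 88.2 CPM.

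The sequence around the start of Tpp1 is shown because it is the promoter of the 1 gene that passed. It covers 250 bases before and 50 after the annotated start on the minus strand, chr7:105752186-105752485 (RefSeq, GRCm38.p6). Capitals mark 2 matches to the E-box relative CATGTG or its reverse complement CACATG.
Tpp1 promoter: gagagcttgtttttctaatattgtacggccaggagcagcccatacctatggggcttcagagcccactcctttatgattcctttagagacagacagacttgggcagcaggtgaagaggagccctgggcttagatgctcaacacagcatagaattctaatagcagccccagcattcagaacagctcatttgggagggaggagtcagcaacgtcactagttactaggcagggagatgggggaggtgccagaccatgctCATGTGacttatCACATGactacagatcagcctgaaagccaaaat
The matches begin 5 and 17 bases from the start, on its downstream side, and CATGTG on either strand is found in 14.2% of 32851 promoters of the same length. The E-box CACGTG, the core of the CLEAR element through which TFEB drives lysosomal genes, has 0 matches in this window and is found in 7.15% of promoters.

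None of the genes around Tpp1 passed. Within 100 kb 7 genes were tested and 0 passed by edgeR's adjusted p. Ilk, the integrin-linked kinase, was at 57.2, 54.8 and 55.9 CPM in KO, against 56.7, 58.2 and 60.0 CPM in KO_WT (log2 fold change -0.06, SE 0.064). The log2 fold changes were -0.04 (SE 0.063) for Taf10, a subunit of the general transcription machinery, and -0.0043 (SE 0.086) for Mrpl17, a mitochondrial ribosomal protein. They were -0.05 (SE 0.19) for Rrp8, -0.16 (SE 0.10) for Dchs1, 0.18 (SE 0.15) for Dnhd1 and -0.62 (SE 0.39) for the weakly expressed Gm15645. Over 1 Mb on either side, 9 of 23 genes were higher and 14 lower in KO, with a median log2 fold change of -0.03 and 1 at an unadjusted p under 0.05, against 7.22% of all genes. Around Grin1 itself, 37 of 58 genes within 1 Mb were higher and 21 lower (median 0.04), 3 had an unadjusted p under 0.05 and 0 passed.

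No other lysosomal gene on the lists passed. Of 13 genes of the neuronal ceroid lipofuscinoses, 7 were higher and 6 lower, with a median log2 fold change of 0.02 against 0.01 over all genes, and Tpp1 alone passed. Mfsd8, a lysosomal membrane channel protein, was at 21.3, 17.6 and 17.8 CPM in KO, against 19.9, 23.6 and 21.9 CPM in KO_WT. The groups of Mfsd8 overlapped, and its log2 fold change was -0.21 (SE 0.095). For Ppt1, the palmitoyl-protein thioesterase, the log2 fold change was -0.04 (SE 0.066). For Ctsd, the aspartyl protease cathepsin D, it was 0.08 (SE 0.089). The median of this list changed sign under several alternatives, reaching -0.04 without KO 1.

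On a list of lysosomal peptidases that also named the cytosolic Tpp2, 11 of 17 tested genes were higher and 6 lower (median 0.02). Tpp1 was again the 1 that passed. Dpp7, a dipeptidyl peptidase, is encoded within 1 Mb of Grin1 (chr2:25352276-25356359). It was at 19.6, 20.5 and 19.8 CPM in KO and at 15.5, 18.5 and 18.1 CPM in KO_WT, without overlap (log2 fold change 0.20, SE 0.081, not passing). Of 26 lysosomal hydrolases of sugars and lipids 13 were higher and 13 lower (median 0.00, rounded, with a sign that varied with the scaling), and the extreme values were -0.18 for Arsb, an arylsulfatase, and 0.23 for Gaa, acid alpha-glucosidase. Of 22 genes of the lysosomal membrane and proton pump 15 were higher and 7 lower (median 0.07). Without overlap 3 of that list were higher (13.6%, against 5.95% of all genes) and 1 was lower (4.5%, against 6.4%). The lower one was Scarb2, the receptor that sorts glucocerebrosidase (74.2, 80.5 and 90.2 CPM in KO, against 95.9, 97.4 and 91.2 CPM in KO_WT). Of 24 autophagy genes 9 were higher and 15 lower (median -0.02, turning to 0.03 on the RPKM scale with a pseudocount of 0.1), and 0 had an unadjusted p under 0.05. On that RPKM scale the median over all genes was 0.05. At an unadjusted p under 0.05 the membrane list had 1 higher and 1 lower gene, the peptidase list Dpp7 beside Tpp1, and the hydrolase list Arsb, against 7.22% of all genes.

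The 12 higher and 12 lower genes with the smallest p among those without overlap were drawn from all named genes above 1 CPM. Of these 24, 23 did not pass (edgeR adjusted p 0.678 for each), and their values are given as measurements. The rule picked them for separation in these libraries, so their lack of overlap is no result.

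Abca9, a lipid transporter of the ABC family, had the smallest p after Tpp1. It was at 14.8, 12.8 and 14.6 CPM in KO and at 18.0, 19.6 and 19.8 CPM in KO_WT (log2 fold change -0.45, SE 0.086). Papss2, which makes the sulfate donor for proteoglycans and lipids, was at 20.4, 18.8 and 19.97 CPM in KO, against 25.99, 26.5 and 27.5 CPM in KO_WT (-0.44, SE 0.094). For both genes the 3 KO libraries lay close together, as they did for Tpp1. In each of the other 9 lower genes KO 3 was the highest KO library. Lrp4, the receptor for agrin that also acts at synapses, was at 35.0, 36.0 and 51.2 CPM in KO, against 62.8, 59.1 and 61.0 CPM in KO_WT (-0.58, SE 0.13). Sipa1l1, a postsynaptic activator of Rap GTPase hydrolysis, was at 303, 312 and 420 CPM in KO, against 562, 477 and 483 CPM in KO_WT (-0.56, SE 0.13). Without KO 3 the log2 fold change was -0.78 for Lrp4 and -0.72 for Sipa1l1, and Lrp4 then passed. DESeq2 called 8 genes, which were Tpp1, Abca9, Lrp4, Slc17a6, Hcrt, 1700048O20Rik, Ugt2a1 and Xist. Ugt2a1 was counted in KO 1 alone. Xist, the RNA of the inactive X chromosome, was at 570 and 677 CPM in KO 1 and KO 2, the libraries without Y-linked transcripts, and at 0.138 CPM in KO 3, against 0.063 to 0.18 CPM in KO_WT.

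The remaining lower genes had varied roles. Myh11, the myosin of vascular smooth muscle, was at 8.41, 7.48 and 10.4 CPM in KO, against 14.2, 14.0 and 13.4 CPM in KO_WT (log2 fold change -0.66, SE 0.16). Csf1r, the growth factor receptor that microglia need, was at 91.5, 81.5 and 91.8 CPM in KO, against 121, 111 and 98.1 CPM in KO_WT (-0.32, SE 0.080). The log2 fold change was -0.58 (SE 0.14) for Tlr13, a sensor of bacterial ribosomal RNA in mice. It was -0.49 (SE 0.13) for Trim56, a ubiquitin ligase of innate immunity. The last 3 lower genes were Ptpn13, a tyrosine phosphatase (-0.48, SE 0.11), the stress gene Sesn3 (-0.53, SE 0.14) and Pdzd2 (-0.44, SE 0.11).

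Among the higher genes Slc17a6, the vesicular glutamate transporter of thalamic and other subcortical neurons, had the smallest p. It was at 61.8, 79.1 and 103 CPM in KO and at 36.0, 56.4 and 41.8 CPM in KO_WT (log2 fold change 0.86, SE 0.20). With terms for regional markers it was 0.46. Slc17a6 is itself 1 of the 10 thalamus markers described further on, so it is part of those terms. H2-Q4, a class I histocompatibility gene whose close relatives may share its reads, was at 4.63, 5.41 and 4.61 CPM in KO, against 2.43, 3.40 and 3.16 CPM in KO_WT (0.70, SE 0.17). Coq6, a hydroxylase of ubiquinone synthesis, was at 15.2, 15.0 and 15.4 CPM in KO, against 11.7, 11.9 and 13.1 CPM in KO_WT (0.31, SE 0.084). Psmb2, a subunit of the proteasome core, was at 63.6, 74.4 and 55.1 CPM in KO, against 47.5, 49.97 and 49.9 CPM in KO_WT (0.39, SE 0.099). Mrpl41, a mitochondrial ribosomal protein encoded within 1 Mb of Grin1, was at 47.5, 43.4 and 42.2 CPM in KO, against 36.3, 36.4 and 38.2 CPM in KO_WT (0.26, SE 0.064). KO 3 was the lowest KO library for Psmb2 and Mrpl41, and the highest for Slc17a6.

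The other higher genes had varied roles. The log2 fold changes were 0.30 (SE 0.078) for thioredoxin Txn1, 0.55 (SE 0.14) for the nuclear pore gene Nup43, and 0.27 (SE 0.073) for Higd2a, an assembly factor of respiratory complexes. They were 0.30 (SE 0.079) for the neuronal GTPase Rit2, 0.38 (SE 0.10) for Ispd, which glycosylates dystroglycan, and 0.46 (SE 0.12) for Mcts2. Mcts2 is a retrogene copy inside another gene, so its reads may be shared. Hcrt, the hypothalamic peptide hypocretin, was at 20.6, 1.59 and 0.11 CPM in KO, against 0.063, 0.030 and 0.030 CPM in KO_WT, where 1 or 2 reads per library were counted, and no fold is read from it. In KI against KI_WT the mean had the same sign as in KO for 8 of the 12 higher and 6 of the 12 lower genes.

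**Figure D3:**
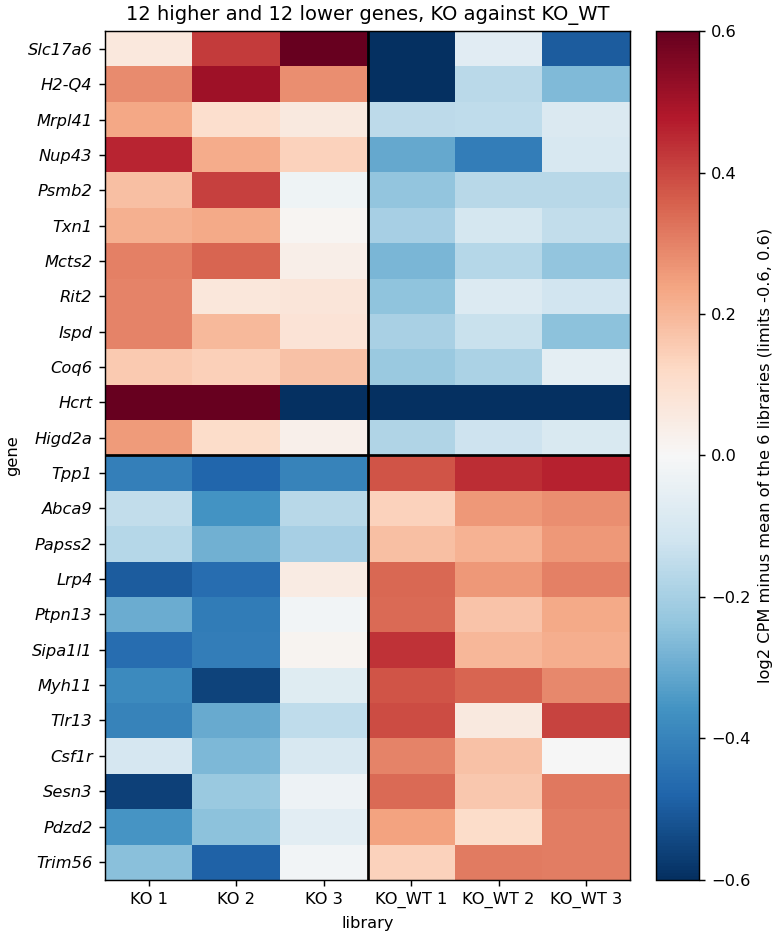
Log2 CPM minus the mean of the 6 libraries (colour, limits -0.6 and 0.6) for the 12 higher and 12 lower genes (rows) in KO 1 to KO 3 and KO_WT 1 to KO_WT 3 (columns). Tpp1, at 46.1 to 48.6 CPM in KO and 83.4 to 88.2 CPM in KO_WT, is even within each group, while KO 3 is paler than KO 1 and KO 2 in rows such as Lrp4 and Sipa1l1.

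Fold changes of KO over KO_WT declined with gene length, and KO 1 had the steepest decline. Genes above 10 CPM were put into 5 bins by their length in the RPKM values, each of 2040 or 2041 genes. In the bin of shortest genes (up to 2.43 kb) 76.4% had a higher mean in KO, with a median log2 fold change of 0.08. The next bins had medians of 0.02, -0.01 and -0.05, with 57.0%, 45.8% and 33.0% higher. In the bin of longest genes (from 7.14 kb) 22.0% were higher, with a median of -0.11 (-0.105 before rounding). The bins held 182, 96, 118, 153 and 285 genes with an unadjusted p under 0.05, from shortest to longest.

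The shift differed between KO libraries. The median deviation of the longest bin minus that of the shortest was -0.27, -0.06 and 0.04 in KO 1 to KO 3, against 0.08, 0.11 and 0.10 in KO_WT 1 to KO_WT 3. All KO libraries lay below all KO_WT libraries, but KO 3 was much nearer to KO_WT than to KO 1. The mean was -0.096 ± 0.159 in KO and 0.096 ± 0.014 in KO_WT (SD, n = 3 each), a difference of -0.192. With 3 against 3 libraries the exact permutation p, on both sides, was 0.1, which is as small as it can be. In the other line the difference was -0.082 (KI -0.042 ± 0.09, KI_WT 0.04 ± 0.091, SD, n = 3 each, exact permutation p = 0.3). With a term for this trend in the fit, 471 genes had an unadjusted p under 0.05 in place of 1260, and Tpp1 passed at -0.81 (edgeR adjusted p 0.00653, a term added after the data were seen). The trend was computed from these same libraries, in which it separates KO from KO_WT. The term can therefore take up genotype differences of any source, and values with it are not length-corrected effects. For each gene list whose median this term turned in sign or moved by over 0.1, the median with the term is given beside it. It was -0.05 for the lipofuscinosis genes, -0.12 for the peptidases and 0.02 for the hydrolases of the lysosome, and -0.68 for the Y-linked genes.

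**Figure D4:**
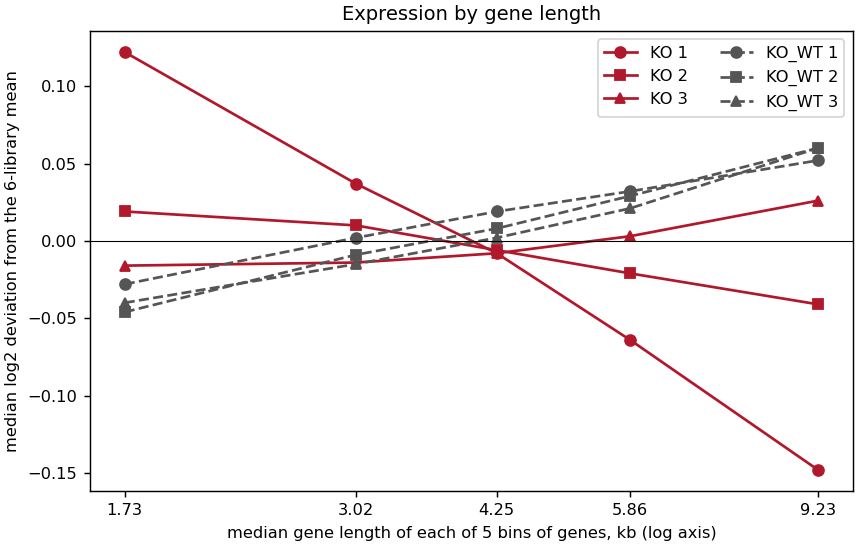
Median log2 deviation from the mean of the 6 libraries (y axis) in 5 bins of genes above 10 CPM by length (x axis, median length of the bin in kb, log axis), 1 line per library of KO (solid) and KO_WT (dashed). KO 1 declines most steeply (longest minus shortest -0.27), KO 2 slightly (-0.06), and KO 3 (0.04) and the KO_WT libraries (0.08 to 0.11) incline the other way.

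Genes of glutamate signalling and its calcium arm had lower means in KO, without passing. Of 17 ionotropic glutamate receptor subunits 11 were lower and 6 higher, with a median log2 fold change of -0.12 against 0.01 over all genes, and 0 passed. Grin2b, an NMDA receptor subunit with a large role in early development, was at 253, 382 and 490 CPM in KO, against 515, 543 and 524 CPM in KO_WT. Gria3, an AMPA receptor subunit, was at 258, 240 and 322 CPM in KO, against 343, 319 and 328 CPM in KO_WT (-0.27, SE 0.11). KO 1 held the lowest value of Grin2b and KO 2 that of Gria3. Here and below, the mean deviation of a list is its mean log2 distance from the mean of all 12 libraries. For the subunits it was -0.28, -0.01 and 0.05 in KO 1 to KO 3, against 0.06 in each KO_WT library. Without KO 1 their median fold change was -0.09. The subunits are long genes, with a median of 6.15 kb against 3.55 kb over all genes. Their median fold change was -0.02 with the length term and -0.05 with the Y-linked term.

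Of 27 genes of calcium signalling downstream of NMDA receptors 24 were lower and 3 higher (median -0.12, or -0.04 with the length term). Prkca, a calcium-dependent protein kinase C, was at 171, 157 and 225 CPM in KO, against 241, 268 and 297 CPM in KO_WT, without overlap (log2 fold change -0.54, SE 0.16). Camk4, a calmodulin-dependent kinase of the nucleus, was at 264, 163 and 329 CPM in KO, against 443, 309 and 351 CPM in KO_WT (-0.54, SE 0.21). Prkcb (-0.44, SE 0.17) and Camk2a (-0.46, SE 0.21), kinases abundant in forebrain neurons, had lower means as well. In this list 3 genes were lower at an unadjusted p under 0.05 (11.1%, against 3.79% of all genes) and 3 were lower without overlap (11.1%, against 6.4%), and 0 passed. KO 3, with a mean deviation of 0.04, was close to the 0.06 to 0.14 of KO_WT, while KO 1 and KO 2 were at -0.18 and -0.14.

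Receptors for other transmitters and peptides were less uniform. Of 27 monoamine and acetylcholine receptors 17 were lower and 10 higher (median -0.08, and -0.03 without KO_WT 1), with Chrm1, the main muscarinic receptor of cortex, at 104, 118 and 128 CPM in KO, against 142, 148 and 134 CPM in KO_WT (-0.28, SE 0.13). Of 19 neuropeptide genes 13 were higher and 6 lower (median 0.25), but the median was -0.01 without KO 1, in which the list stood at 0.53. Within the ranges of animal numbers the median was 0.61 in the low range and -0.12 in the high range. Gal, the precursor of galanin, was at 4.88, 10.02 and 0.41 CPM in KO, against 0.50, 0.42 and 2.44 CPM in KO_WT. Its groups overlapped. Neuropeptide genes are short (median 1.32 kb), and their median fold change was -0.09 with the length term and 0.06 with the Y-linked term. None of these genes passed.

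Axon guidance, perineuronal net and neurotrophic genes mostly had lower means. Of 40 axon guidance ligands and receptors 31 were lower and 9 higher (median -0.13), and 4 were lower at an unadjusted p under 0.05 (against 3.79% of all genes). Plxna2, a semaphorin receptor, was at 97.7, 109 and 127 CPM in KO, against 147, 129 and 143 CPM in KO_WT (-0.33, SE 0.11). Dcc, the netrin receptor, was at 4.90, 5.80 and 7.87 CPM in KO, against 8.63, 9.496 and 9.12 CPM in KO_WT (-0.55, SE 0.21). Both were without overlap, with KO 1 lowest, and the list's median was -0.01 with the length term (median length 7.17 kb). Its mean deviation was -0.22, 0.035 and -0.003 in KO 1 to KO 3, against 0.001 to 0.083 in KO_WT. Without KO 1 its median was -0.09. Of 21 perineuronal net and proteoglycan genes 15 were lower and 6 higher (median -0.14, and -0.14 with the length term), 5 of them lower without overlap (23.8%, against 6.4% of all genes). Among these Vcan, a proteoglycan of precursor cells, was at 22.3, 25.4 and 31.2 CPM in KO, against 33.0, 34.5 and 36.7 CPM in KO_WT (-0.40, SE 0.12). Ptprz1, a receptor phosphatase and proteoglycan, was at 263, 286 and 330 CPM in KO, against 380, 340.8 and 363 CPM in KO_WT (-0.30, SE 0.10).

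Of 34 neurotrophic factors and receptors 23 were lower and 11 higher (median -0.08), and 7 (20.6%) were lower without overlap, against 6.4% of all genes. They were Ntrk2, Nrg1, Erbb3, Egfr, Igf1r, Fgf1 and Fgf2. Ntrk2, the receptor of brain-derived neurotrophic factor, was at 592, 551 and 776 CPM in KO, against 874, 780 and 824 CPM in KO_WT (-0.37, SE 0.12). Erbb3, a neuregulin receptor of oligodendrocytes, was at 12.7, 10.5 and 12.8 CPM in KO, against 17.8, 18.8 and 14.4 CPM in KO_WT (-0.50, SE 0.15). Bdnf itself had a log2 fold change of 0.22. Of 21 ABC transporters of lipids and drugs 16 were lower and 5 higher (median -0.08, 0.03 with the length term and -0.17 without KO 2). Without overlap 6 were lower (28.6%, against 6.4% of all genes), among them Abcb1a, the drug efflux pump of brain endothelium (-0.40, SE 0.12).

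The medians of the next lists were within 0.1 of 0. Of 35 WNT ligands, receptors and transducers 17 were higher and 18 lower (median -0.01, above 0 on the RPKM scales, 0.01 with the length term and 0.04 without KO_WT 1). At an unadjusted p under 0.05, 5 were lower (14.3%, against 3.79% of all genes) and 1 was higher (2.9%, against 3.43%). Without overlap 0 were higher and 3 lower (8.6%, against 6.4% of all genes). Among these was Daam2, a WNT effector of oligodendrocyte lineage cells, at 61.2, 63.8 and 89.7 CPM in KO, against 95.4, 105.1 and 93.5 CPM in KO_WT (-0.45, SE 0.13). Among the alternatives run, Daam2 passed only without KO 3 (-0.65). Of 34 genes of TGF beta and BMP signalling 16 were higher and 18 lower (median -0.03, above 0 on the RPKM scales). On the RPKM scales the median over all genes was itself 0.04 to 0.05, against 0.01 in the main fit. At an unadjusted p under 0.05, 4 of the TGF beta and BMP genes were lower (11.8%, against 3.79% of all genes) and 0 higher. Without overlap 4 were lower (11.8%, against 6.4% of all genes) and 0 higher (against 5.95%). Of 31 collagen and basement membrane genes 18 were higher and 13 lower (median 0.08, -0.12 without KO 2, -0.03 with the Y-linked term and -0.01 with the length term). Of 22 cholesterol synthesis genes 16 were higher and 6 lower (median 0.07, and -0.04 with the length term). Of 17 glucocorticoid responsive genes 6 were higher and 11 lower (median -0.04, and 0.10 without KO 2). Of 27 neuronal RNA splicing regulators 13 were higher and 14 lower (median 0.00, rounded, with a sign that varied with the scaling), with Elavl2, a neuronal RNA-binding protein, at 130, 128 and 130 CPM in KO, against 105, 120 and 117 CPM in KO_WT (0.18, SE 0.063). None of these genes passed.

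Interferon and antigen presentation genes had higher means almost throughout. Of 25 such genes 24 were higher and 1 lower, with a median log2 fold change of 0.40 against 0.01 over all genes. At an unadjusted p under 0.05 there were 7, all higher (28.0%, against 3.43% of all genes), 6 of the 25 were higher without overlap (against 5.95% of all genes), and 0 passed. H2-K1, a classical class I molecule, was at 28.7, 35.4 and 24.1 CPM in KO, against 21.9, 20.97 and 23.95 CPM in KO_WT (0.40, SE 0.13). B2m, the light chain of class I molecules, was at 107, 121 and 94.4 CPM in KO, against 85.6, 81.2 and 91.0 CPM in KO_WT (0.32, SE 0.12). Irf7, a transcription factor that amplifies the interferon response, was at 1.95, 4.10 and 2.65 CPM in KO, against 1.54, 1.502 and 1.60 CPM in KO_WT (0.90, SE 0.41). KO 2 was the highest library for each of these, and KO 3 barely exceeded KO_WT for H2-K1 and B2m.

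The list's mean deviation was 0.00, 0.51 and 0.05 in KO 1 to KO 3, against -0.27, -0.15 and -0.14 in KO_WT 1 to KO_WT 3. The median was 0.21 without KO 2, 0.24 with the term for Y-linked expression and 0.40 with the length term. In KI against KI_WT it was 0.31, so the sign of the median was the same in both lines, and a difference between lines was not tested for the list. Microglia and endothelial markers, whose values follow below, had lower means, and their part in the result was not tested.

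Ribosomal protein genes had slightly higher means. Of 43 genes of the cytosolic large subunit 42 were higher (median 0.13), and 9 were higher without overlap (20.9%, against 5.95% of all genes). Rpl27 was at 103, 92.3 and 84.3 CPM in KO, against 76.3, 76.7 and 83.9 CPM in KO_WT (0.24, SE 0.11). KO 1 stood highest (0.21), and KO 3 (-0.07) lay within the KO_WT range of -0.10 to -0.06. These are short genes (median 1.66 kb), and the median was 0.06 without KO 1 and -0.07 with the length term, which turned the direction. Of 30 mitochondrial ribosomal protein genes 27 were higher and 3 lower (median 0.10, 0.03 with the length term and 0.05 without KO 1), with Mrpl20 at 47.1, 45.4 and 45.3 CPM in KO, against 39.8, 39.7 and 40.6 CPM in KO_WT (0.20, SE 0.076). None of them passed. Of 7 X-linked genes that escape inactivation 6 were higher (median 0.24, and -0.05 with the term for Y-linked expression), and Mid1 was lower (-0.52, SE 0.18).

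Markers of glia and vessels had lower means in KO. Oligodendrocyte markers were lower for 10 of 10 (median -0.39, -0.19 without KO 2 and -0.70 without KO 3), summing to 7382, 4997 and 10877 CPM in KO 1 to KO 3, against 10984, 11776 and 9110 CPM in KO_WT 1 to KO_WT 3. The groups overlapped, since KO 3 was above KO_WT 3. Mobp, a myelin protein, was at 1011, 822 and 1842 CPM in KO, against 1777, 2038 and 1652 CPM in KO_WT (-0.57). Precursor markers were lower for 7 of 7 (median -0.31, -0.20 without KO 1 and -0.17 with the length term), with Pdgfra, the growth factor receptor that defines these cells, at 66.3, 51.6 and 79.2 CPM in KO, against 95.8, 84.2 and 81.3 CPM in KO_WT (-0.41, SE 0.15). Astrocyte markers were lower for 8 of 10 (median -0.19), with 4 lower without overlap (against 6.4% of all genes). Among them Slc1a3, a glutamate transporter, was at 781, 538 and 791 CPM in KO, against 903, 826 and 967 CPM in KO_WT (-0.35). By contrast Gfap, the filament of reactive astrocytes, was at 820 CPM in KO 2, against 214 to 334 CPM in the other 5 libraries.

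Microglia markers were lower for 9 of 10 (median -0.10, -0.06 without KO 3 and -0.21 with the length term), summing to 468 to 492 CPM in KO and 517 to 568 CPM in KO_WT. Among them Cx3cr1, the fractalkine receptor, was at 43.4, 42.0 and 56.2 CPM in KO, against 66.1, 59.0 and 57.1 CPM in KO_WT (-0.36, SE 0.13). Endothelial markers were lower for 9 of 9 (median -0.18), summing to 296 to 369 CPM in KO and 379 to 421 CPM in KO_WT. Among them Flt1, a receptor of vascular endothelial growth factor, was at 54.5, 58.7 and 72.0 CPM in KO, against 88.8, 82.8 and 74.9 CPM in KO_WT (-0.41, SE 0.11). Mural markers were lower for 8 of 8 (median -0.30, -0.17 without KO 2 and -0.42 with the length term), with Pdgfrb, the pericyte receptor, at 14.3, 16.2 and 18.9 CPM in KO, against 25.0, 19.98 and 19.8 CPM in KO_WT (-0.39, SE 0.13). For all 3 genes KO 3 was nearest to KO_WT without overlapping it. Without overlap, 4 of 7 precursor, 4 of 10 microglia, 3 of 9 endothelial and 4 of 8 mural markers were lower, against 6.4% of all genes, and 0 passed. The medians of these 4 lists were below 0 under each alternative run. Blood transcripts were lower for 5 of 5 (median -0.36, but -0.085 without KO_WT 3 and -0.09 with the Y-linked term).

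Neuron markers were mixed. Excitatory markers were lower for 5 of 8 (median -0.13) and summed to 2945 to 4525 CPM in KO and 4297 to 4998 CPM in KO_WT. Their median was 0.11 without KO 1 and 0.27 with the length term. Upper-layer markers were lower for 7 of 8 (median -0.17, -0.36 without KO 3 and -0.02 with the length term). Deep-layer markers were lower for 5 of 8 (median -0.07, and 0.01 without KO 2). Interneuron markers were lower for 5 of 9 (median -0.01, above 0 on the RPKM scales, 0.05 without KO 2 and -0.19 with the length term). In none of these 4 lists did a marker separate the groups without overlap, against 12.4% of all genes.

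Markers from outside the cortex varied widely between libraries of 1 group. Thalamus markers were higher for 10 of 10 (median 0.56) and summed to 369, 430 and 649 CPM in KO 1 to KO 3, against 274, 460 and 348 CPM in KO_WT 1 to KO_WT 3. Their median was 0.28 without KO_WT 1, 0.91 with the Y-linked term, 0.84 with the length term and 0.00 with the regional terms, which use thalamus markers. Within the ranges of animal numbers it was -0.11 in the low range and 1.33 in the high range. All 9 choroid plexus markers had higher means (median 1.15), at 903, 1070 and 561 CPM in KO, against 19.8, 887 and 28.7 CPM in KO_WT. Their median was 2.71 without KO_WT 2, 0.81 with the Y-linked term and 0.89 with the length term. Ependyma markers were higher for 7 of 7 (median 0.47, 0.26 without KO 3, 0.36 with the Y-linked term and 0.28 with the length term), at 30.9 to 41.2 CPM in KO and 24.9 to 32 CPM in KO_WT. Hypothalamus markers were higher for 8 of 8 (median 2.62), at 190, 64.4 and 9.25 CPM in KO 1 to KO 3, against 11.2, 12.9 and 27.9 CPM in KO_WT. Their median was 1.71 without KO 1, 3.76 with the Y-linked term and 0.04 with the length term. KO 1 and KO 2 carried the hypothalamic transcripts, such as Pmch, the melanin-concentrating hormone precursor, at 69.5, 8.50 and 0.50 CPM in KO, against 0.91, 1.77 and 0.12 CPM in KO_WT. KO 3 was within the KO_WT range for it.

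The remaining regions had no common direction. Olfactory bulb markers were lower for 5 of 8 (median -0.17, and above 0 on the RPKM scales), at 106 to 315 CPM in KO and 127 to 359 CPM in KO_WT. Leaving out 1 library moved their median to between -1.52 (without KO 1) and 2.77 (without KO_WT 3), the Y-linked term to -0.52 and the length term to -1.87. Striatum markers were lower for 9 of 9 (median -0.38, 0.02 without KO 2, -1.02 without KO 1 and -1.05 with the length term), at 1497, 521 and 557 CPM in KO, against 1267, 935 and 893 CPM in KO_WT. Hippocampus markers were lower for 6 of 8 (median -0.15), and their median turned to 0.21 without KO_WT 2 and 0.33 with the length term and was near 0 on the RPKM scales. Both lists changed sign between the low and high ranges of animal numbers. The medians were 0.78 and -1.32 for striatum, and -1.09 and 0.98 for hippocampus. Meninges markers were higher for 8 of 9 (median 0.16), and their median turned to -0.17 without KO 1, -0.016 without KO_WT 1 and -0.31 with the length term. All markers of these regional lists were detected in all 6 libraries, and 0 passed. The part of these tissues, of sex and of gene length in the gene groups above was not tested beyond the terms given.

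**Figure D5:**
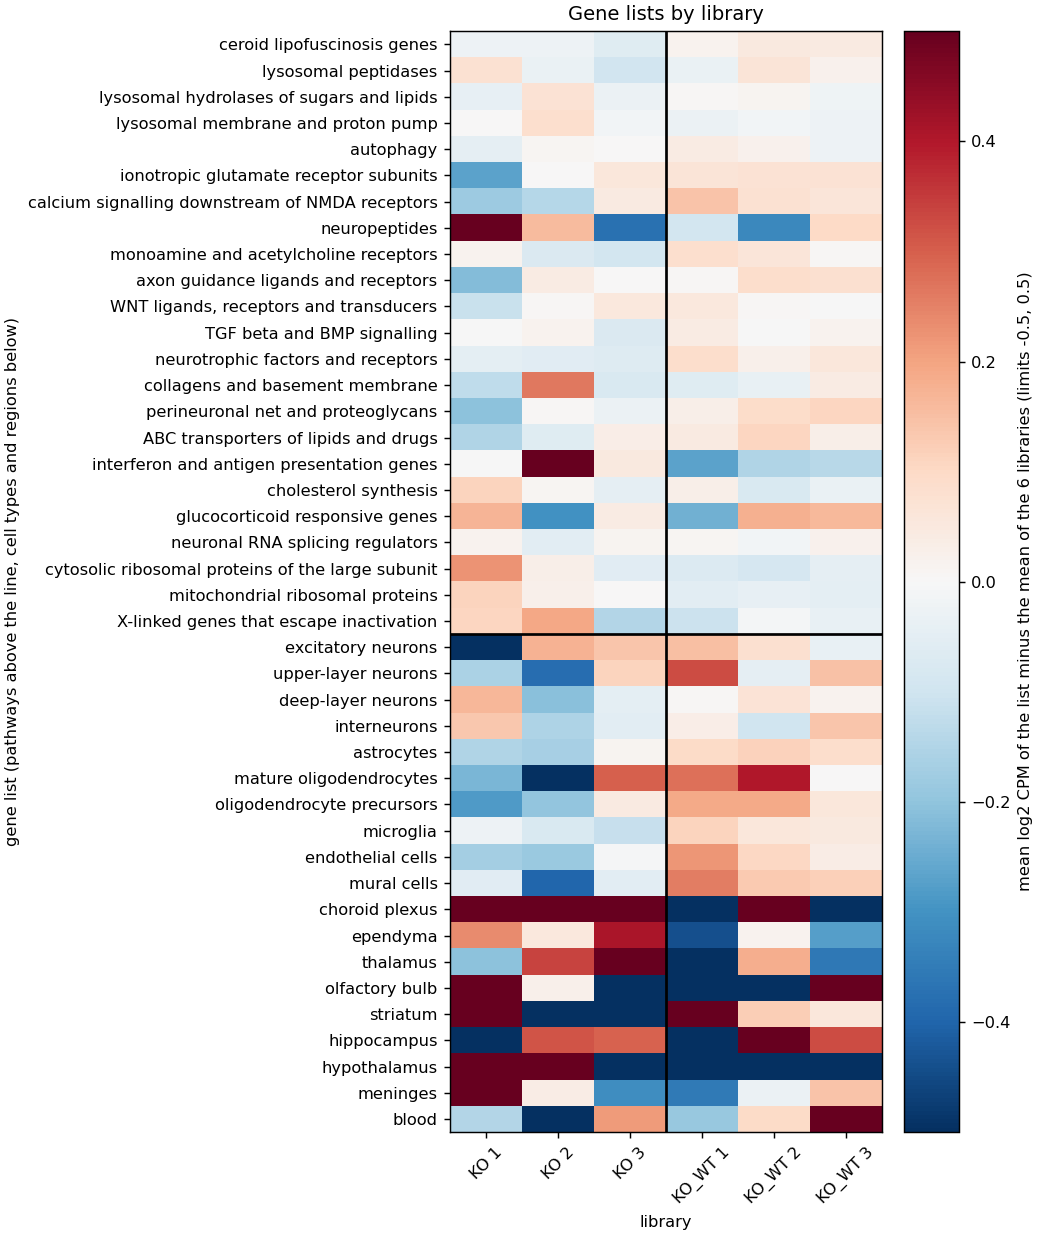
Mean log2 CPM of each gene list minus its mean over the 6 libraries (colour, limits -0.5 and 0.5), with pathway lists above the line and cell type or region lists below (rows), in KO 1 to KO 3 and KO_WT 1 to KO_WT 3 (columns). Interferon and antigen presentation genes reach 0.51 in KO 2 and are below 0 in all KO_WT libraries. Oligodendrocyte markers are below 0 in KO 1 and KO 2, and above 0 in KO 3, KO_WT 1 and KO_WT 2.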

How the data were processed

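Poly(A) RNA-seq of mouse cortex was deposited as a table of read counts and a table of RPKM values per gene. Per the submitters' processing notes the tools were bcl2fastq 2.17, STAR 2.5.0c and Cufflinks 2.2.1, with build GRCm38. The counter, annotation and strand setting are not given in the sources used here, so reads of overlapping, antisense and near-identical genes are uncertain. The deposited counts are raw. The RPKM values were made by the authors from these counts scaled for gene length and library total, which a check over 8292 genes matched within 0.0534%. Columns of no mapped sample numbered 0. The count table held 41388 genes.

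All 12 libraries were fitted together with edgeR 4.0.16 in R 4.3.3 (filterByExpr, TMM, quasi-likelihood test, 4 groups without covariates, 8 residual degrees of freedom), with Benjamini-Hochberg adjustment over 17441 genes and a threshold of 0.05. Alternatives used DESeq2 1.42.0 and limma 3.58.1. The test was also run on counts simulated with the fitted dispersions, with 200 genes changed in KO. It called 28.5% of them at 1.5-fold, 69% at 2-fold and 89.5% at 4-fold, beside 4, 6 and 15 unchanged genes. Each gene was drawn independently, with the same dispersion in all groups. The larger spread within KO and shifts shared by many genes were not simulated, so these shares may be too high for the real libraries. The coefficient of variation was 15.7%, and p-values measure the spread between animals. CPM values are TMM-scaled, and gene length was taken from counts over RPKM.

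Named genes were Grin1, every gene that passed, the 12 higher and 12 lower genes with the smallest p (at least 1 CPM, no overlap, no predicted-gene name), the 2 members of each pathway list and the 1 of each cell type list with the smallest p, and the tested genes within 100 kb of Tpp1. Other list members were chosen after their values were seen. The members and the 43 lists were chosen with earlier results of these data known.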

Additional observations from a re-analysis of the deposited data

Results flagged for a closer look

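The effect on Tpp1 differed between the 2 lines. KO libraries averaged 47.7 ± 1.37 CPM and KO_WT libraries 86.3 ± 2.55 CPM, while KI libraries averaged 79.1 ± 3.13 CPM and KI_WT libraries 82.3 ± 3.45 CPM (SD, n = 3 each). The difference of the 2 log2 fold changes was -0.80 (SE 0.087), and edgeR's adjusted p for it over all genes was 0.0155. Tpp1 was lower in 3 of 3 KO libraries than in every KO_WT library.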

How the results depend on the processing

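No paired analysis was possible because replicate numbers were given in accession order and pair no samples. Tpp1 had a log2 fold change of -0.88 to -0.83 when 1 library was left out, and lost its call with terms for regional markers (-0.88, edgeR adjusted p 0.0571). Genes called numbered 1 in most alternatives, 8 by DESeq2, 3 by limma on log2(RPKM + 0.1) without a filter and 0 with regional terms, and 1 to 6 with 1 library left out (6 without KO 3, all lower). Genes at an unadjusted p under 0.05 numbered 1260, and 751 to 2594 with 1 library left out, 1917 with the number-range term, 512 with the Y-linked term, 660 with regional terms and 471 with the length term, chosen after seeing the data. Of 1707 fold changes of named genes under alternatives, 18 reversed. With the length term Grin1 was at 0.014 and Zbtb16 at 0.12. Kdm5d was at 0.061 with the Y-linked term and Vip at 0.070 with regional terms. Mrpl17 was at 0.0051 with a 1 CPM filter, 0.049 and 0.042 on log2(RPKM + 0.1) and log2(RPKM + 1), -0.050 to 0.042 with 1 library left out (above 0 without KO 3 or KO_WT 3) and 0.010 with the number-range term. Rrp8 was at -0.33 to 0.128 with 1 library left out (above 0 without KO 2, KO 3 or KO_WT 2) and 0.057 with the number-range term. Taf10 was at 0.017 and 0.016 on the 2 RPKM scales, where the median over all genes was 0.052 and 0.042. The cause was not tested. Of 43 list medians, 21 kept their sign under every alternative. With 3 libraries a group, modest changes can be missed.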
